A study of Mus musculus with 16 samples.

Results

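The small proline-rich proteins (Sprr) are a mouse gene family of chromosome 3, examined here in glomeruli, the capillary tufts that filter blood in the kidney. The 8 genes described are Sprr1a, Sprr1b, Sprr2d, Sprr2e, Sprr2f, Sprr2g, Sprr2h and Sprr3, of 17 Sprr genes and pseudogenes in the RefSeq gene table. They were chosen by measured values of the comparison described below, so their levels and differences are given as a description, with no test. The array annotation named a transcript cluster, a gene-level row, for 6 of the 8, and 9 exon-level probe sets for the same 6 genes. These stand among 93623 clusters and 375483 probe sets in all. Sprr2d and Sprr2e had no named row at either level and were not analysed here for expression.

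RNA came from glomeruli of mouse embryos at E18.5, late in gestation, 4 wild type and 4 wt1(+KTS) mutant, the latter titled Frasier, all on a C57Bl6x DBA2 mixed background and with no special treatment. WT1 is a zinc finger protein of podocytes, which form the outer layer of the filter, and +KTS names the splice form that carries a short amino acid insert. Glomeruli were separated with magnets after bead perfusion, and RNA was hybridised to Affymetrix exon arrays, 1 array per embryo sample. The 16 deposited samples hold each of the 8 arrays at both the gene and the exon level, which leaves 4 arrays per genotype. The labels give neither the zygosity of the mutants, nor their litters, nor sex. The sample codes end in a letter of unstated meaning, c in wild-type replicates 1 to 3, d in wild-type replicate 4, a in mutant replicate 1 and e in the other mutants. No letter occurs in both genotypes, so genotype and whatever the letter marks cannot be told apart.

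Small proline-rich proteins are precursors of the cornified envelope, the protein shell of terminally differentiated squamous epithelial cells. Transglutaminases cross-link them to loricrin, involucrin and desmosomal proteins under the plasma membrane. Their genes lie next to one another in the epidermal differentiation complex, together with S100, late cornified envelope and filaggrin-like genes. Outside squamous epithelia, members are known as genes switched on in stressed, injured or hormone-treated tissue. Sprr1a is known from injured neurons and stressed heart muscle, and Sprr2f from the oestrogen-treated mouse uterus.

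The 300-base promoter windows of 4 members are shown because they pair genes of 1 subfamily that differed in their values: Sprr2f and Sprr2h, and Sprr1a and Sprr1b. They come from RefSeq on GRCm38.p6 and run 5′ to 3′ along the gene, from 250 bases before the transcript start through the first 50 transcribed bases. Capitals mark the AP-1 motif TGANTCA, the TATA motif TATAAA and the octamer ATTTGCAT, each searched on both strands. The windows are chr3:92364937-92365236 (plus strand) for Sprr2f, chr3:92385435-92385734 (plus) for Sprr2h, chr3:92485832-92486131 (minus) for Sprr1a and chr3:92438730-92439029 (minus) for Sprr1b.
Sprr2f: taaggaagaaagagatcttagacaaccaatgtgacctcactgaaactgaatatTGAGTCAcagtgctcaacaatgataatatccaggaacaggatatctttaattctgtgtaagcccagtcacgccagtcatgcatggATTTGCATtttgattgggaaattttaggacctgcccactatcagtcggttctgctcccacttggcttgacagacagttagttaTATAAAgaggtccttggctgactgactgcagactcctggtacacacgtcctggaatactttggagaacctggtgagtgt
Sprr2h: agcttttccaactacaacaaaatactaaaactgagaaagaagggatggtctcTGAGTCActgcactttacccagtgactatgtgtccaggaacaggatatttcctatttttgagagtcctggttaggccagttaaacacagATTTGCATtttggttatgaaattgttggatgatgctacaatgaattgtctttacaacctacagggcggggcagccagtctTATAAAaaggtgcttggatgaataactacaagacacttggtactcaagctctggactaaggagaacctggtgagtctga
Sprr1a: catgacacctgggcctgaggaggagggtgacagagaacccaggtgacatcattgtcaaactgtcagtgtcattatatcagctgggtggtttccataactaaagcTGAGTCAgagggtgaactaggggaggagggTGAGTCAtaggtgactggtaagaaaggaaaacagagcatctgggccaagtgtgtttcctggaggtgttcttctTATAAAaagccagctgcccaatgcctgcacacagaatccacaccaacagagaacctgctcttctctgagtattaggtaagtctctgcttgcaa
Sprr1b: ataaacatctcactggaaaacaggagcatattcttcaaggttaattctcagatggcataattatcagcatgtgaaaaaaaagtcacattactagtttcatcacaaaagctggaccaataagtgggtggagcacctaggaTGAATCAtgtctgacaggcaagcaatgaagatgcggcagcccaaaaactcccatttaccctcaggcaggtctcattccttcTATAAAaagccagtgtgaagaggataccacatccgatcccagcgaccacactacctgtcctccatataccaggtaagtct

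A window was given for 7 of the 8 members and for 14 Sprr genes, with none for Sprr2g. The TATA motif lay in 7 of 7 member windows, against 13.6% of the 32851 windows of all genes. Its first base stood 29 bases before the start in Sprr2d, Sprr2e, Sprr2f and Sprr2h, 30 before it in Sprr1b, 33 in Sprr3 and 43 in Sprr1a. The start used for Sprr1b lies 38 bases inside the outermost start of the gene table, while the starts of the other windows coincide with it, so Sprr1b positions refer to another start. The AP-1 motif, bound by Fos and Jun dimers, lay in 6 of 7 member windows, against 7.81% of all, and Sprr3 was the exception. It stood 197 bases before the start in Sprr2f and 198 in Sprr2h. Sprr1a held it at 146 and 116 bases before the start, and Sprr1b at 111. The octamer, bound by POU factors, lay in 4 of 7, against 1.74% of all. Those 4 were the Sprr2 windows of members, with the octamer between 108 and 112 bases before the start. Over all 14 Sprr windows, TATA lay in 10, AP-1 in 9 and the octamer in 7. The windows of Sprr2b, Sprr2i and Sprr2k, which are not members, held each of these motifs. Those of Sprr2a1, Sprr2a2 and Sprr2a3, also not members, held none of them.

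Sprr2f and Sprr2h therefore held the same 3 motifs in the same order, and their windows were identical at 58.8% of aligned positions. The Sprr2f window held further matches that the Sprr2h window did not: the ETS core AGGAAG 248 bases and the interferon motif GAAANNGAA 209 bases before the start. These occurred in 35.4% and 8.56% of all windows. The ETS core was found also in Sprr3, at 3 places. The WT1 motif GNGTGGGNG lay only in Sprr2e among the 7, on the minus strand, 55 bases before the start, against 14.3% of all windows. The KLF motif CCACACCC and the STAT motif TTCNNNGAA lay in 0 of the 7, against 3.56% and 8.30% of all. No match overlapped a match of another motif in these windows. Sprr1a and Sprr1b were identical at 50.5% of aligned positions, and the closest member windows were those of Sprr2d and Sprr2e, at 88.0%. A match is a description of letters and shows no binding.

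**Figure D1:**
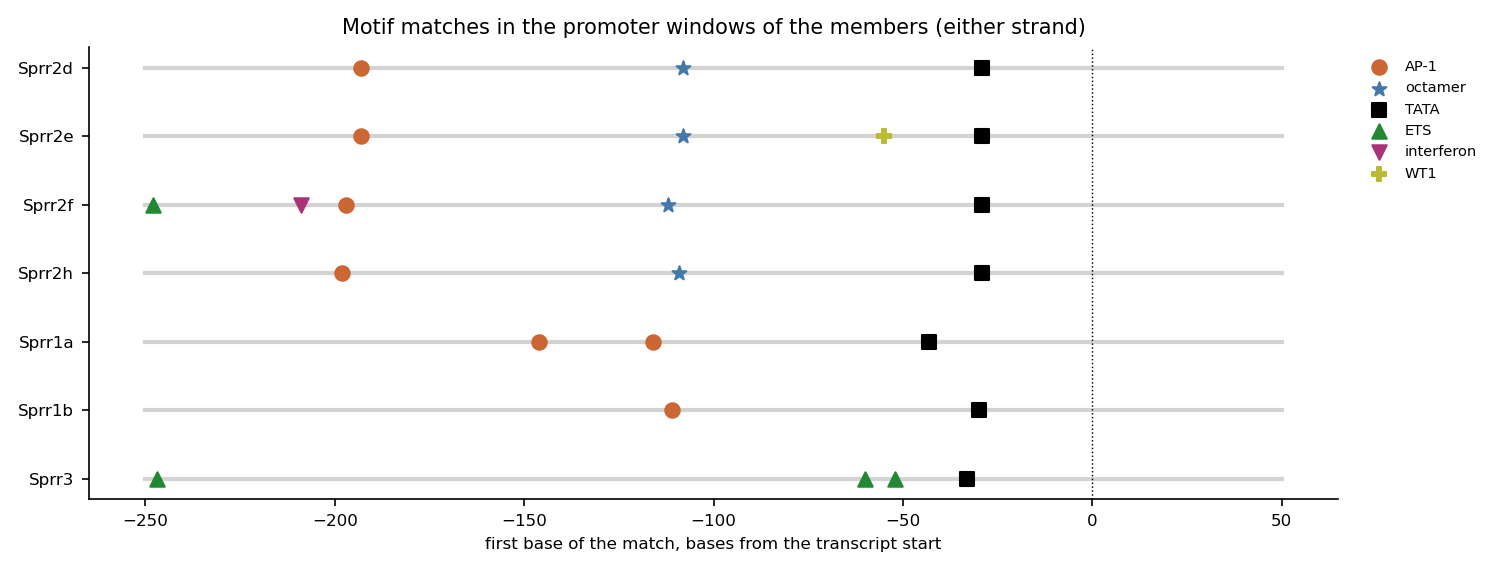
Positions of motif matches on either strand in the promoter windows of 7 members, in bases from the transcript start (dotted line), 1 row per gene and 1 symbol per motif. The 4 Sprr2 windows drawn share the AP-1, octamer and TATA matches in that order. Sprr1a and Sprr1b have AP-1 and TATA only, and Sprr3 has ETS and TATA.

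Values are log2 signals as deposited, and a difference is the mutant mean minus the wild-type mean. Levels of different probe sets are not compared, since probes differ in brightness. Array medians ran from 5.99 to 6.18 at the gene level. Wild-type replicate 4 stood apart, correlating with the other arrays at 0.869 to 0.918, so the differences of Sprr2f, Sprr2g, Sprr1a, Sprr1b and Sprr3 are also given without it. Wt1 itself read 9.09, 8.95, 9.04 and 8.97 in wild type and 8.77, 8.86, 9.02 and 8.97 in mutants. The Wt1 groups overlapped, with a difference of -0.11 (limma adjusted p = 0.701); a total Wt1 signal does not separate the splice forms and so checks no label. In RNA of whole glomeruli, fewer cells of a type and less RNA per cell cannot be told apart.

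Among the Sprr2 genes, Sprr2f and Sprr2g had the largest differences of all members with a cluster. Sprr2h, the next gene along the chromosome, had almost none, at a signal near the middle of all clusters. Sprr2f (cluster 6899430) read 6.43, 5.88, 6.30 and 6.52 in the 4 wild-type arrays and 8.76, 9.07, 8.82 and 7.65 in the 4 mutants. Every mutant array lay above every wild-type array, and mutant replicate 4 was the lowest mutant by more than 1 log2 unit. The means were 6.28 ± 0.283 (SD, n = 4) in wild type and 8.57 ± 0.632 (SD, n = 4) in mutants, a difference of 2.29 or 4.90-fold. Without wild-type replicate 4 the difference was 2.37.

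The 3 probe sets of Sprr2f showed the same order of genotypes. Probe set 4627019 read 9.06, 7.93, 9.06 and 9.04 in wild type and 11.36, 11.79, 11.60 and 10.68 in mutants, a difference of 2.58. Wild-type replicate 2 was low on it, and the genotypes were apart by 1.62 between their nearest arrays. Probe set 5446944 read 5.50, 5.39, 5.09 and 5.83 in wild type and 7.18, 7.63, 8.04 and 6.55 in mutants, a difference of 1.90. Probe set 5480172 read 4.72, 4.32, 4.74 and 4.70 in wild type and 7.75, 7.78, 6.83 and 5.71 in mutants, a difference of 2.40. Without wild-type replicate 4 the 3 differences were 2.67, 2.02 and 2.42. Mutant replicate 4 was the lowest mutant on each of the 3, and its own value stayed above every wild-type array on each.

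Sprr2g is annotated by RefSeq as a transcribed pseudogene, so its signal need not stand for a protein. Its cluster (6899431) rests on 1 named probe set (5377941), and the values at the gene and exon levels were identical. It read 5.08, 5.00, 4.98 and 5.96 in wild type and 7.74, 7.20, 7.91 and 6.88 in mutants. The groups did not overlap, wild-type replicate 4 was the highest wild-type array and mutant replicate 4 again the lowest mutant. The means were 5.25 ± 0.470 and 7.43 ± 0.479 (SD, n = 4 each), a difference of 2.18 or 4.53-fold, and 2.41 without wild-type replicate 4.

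Sprr2h (cluster 6899432, identical to probe set 5106131) read 5.85, 6.29, 5.86 and 6.33 in wild type and 6.10, 5.97, 6.09 and 6.23 in mutants. The 4 mutant values lay inside the wild-type range. The difference was 0.016, and it took either sign, from -0.061 to 0.097, over the other scalings, filters and left-out arrays tried. The mean of Sprr2h over all arrays, 6.09, lay close to the 50th percentile of all clusters, 6.04. Whether it stood above background was not tested, so the small difference need not show an expressed gene that stayed the same. Sequences of the array probes were not used here. Sprr2 genes resemble one another, so a probe set named for 1 of them can also have bound RNA of others, Sprr2d and Sprr2e included, and the values of Sprr2f and Sprr2g are uncertain in that respect.

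**Figure D2:**
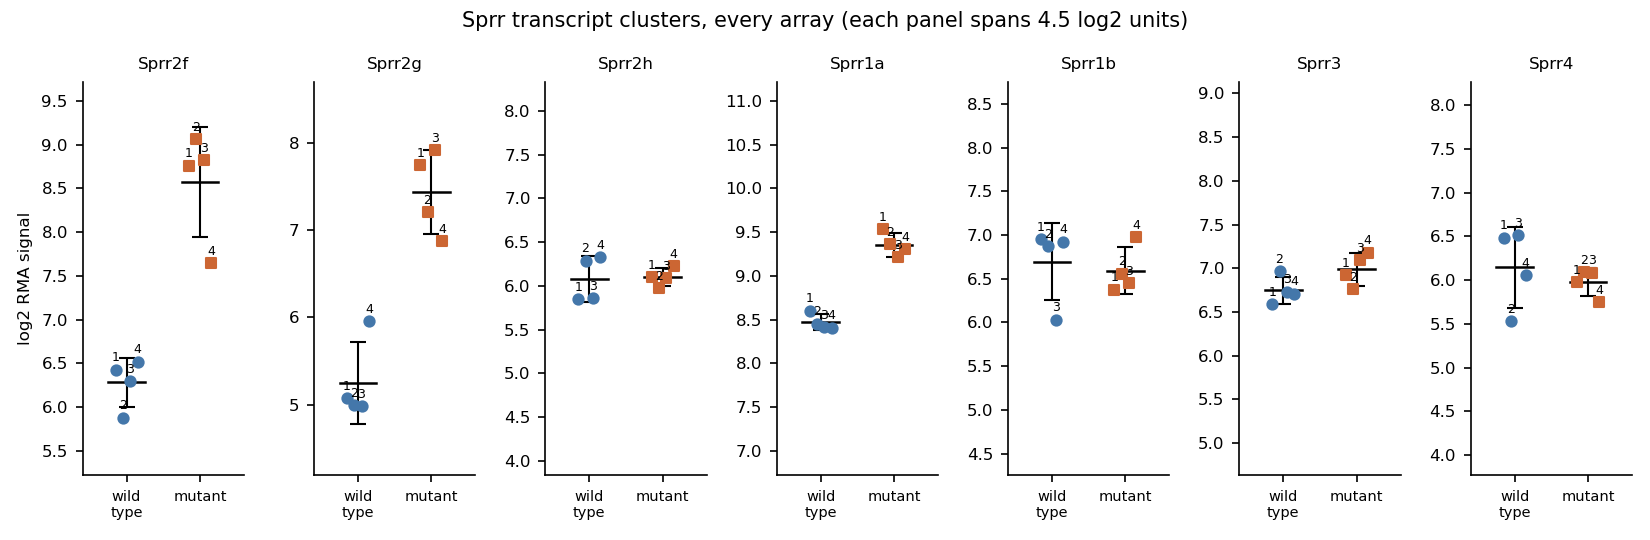
Gene-level log2 signal of 6 members and of Sprr4 on every array, numbered by replicate, with wild type as blue circles, mutants as orange squares, and the mean and SD (n = 4) in black. Each panel spans 4.5 log2 units around its own centre; only Sprr2f, Sprr2g and Sprr1a show genotypes that do not overlap.

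The Sprr1 genes also differed from each other. Sprr1a (cluster 6906967) read 8.60, 8.45, 8.41 and 8.41 in wild type and 9.54, 9.36, 9.21 and 9.31 in mutants. The groups did not overlap, and each was narrow, within 0.193 in wild type and 0.326 in mutants. The means were 8.47 ± 0.0899 and 9.35 ± 0.137 (SD, n = 4 each), a difference of 0.89 or 1.85-fold, and 0.86 without wild-type replicate 4.

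Its named probe sets differed in the size of that difference. Probe set 5412299 read 9.13, 8.92, 8.69 and 8.88 in wild type and 10.31, 10.33, 10.32 and 10.17 in mutants, a difference of 1.38. Probe set 4565637 read 10.57, 10.40, 10.59 and 10.31 in wild type and 11.63, 11.42, 11.51 and 10.92 in mutants, a difference of 0.90. Without wild-type replicate 4 these were 1.37 and 0.85. Mutant replicate 4 was the lowest mutant on both. The mean of the 2 named probe sets gave 1.14, above the 0.89 of the cluster. On every array the cluster read below both of them, so it is not their mean. What else the cluster holds was not examined.

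Sprr1b (cluster 6906965) lies in the same stretch of the chromosome and encodes the other Sprr1 protein. It read 6.95, 6.88, 6.03 and 6.92 in wild type and 6.37, 6.56, 6.45 and 6.98 in mutants, so the groups overlapped and wild-type replicate 3 was the lowest array of all. The difference was -0.11, and -0.031 without wild-type replicate 4. Its named probe set 4658900 gave -0.049.

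**Figure D3:**
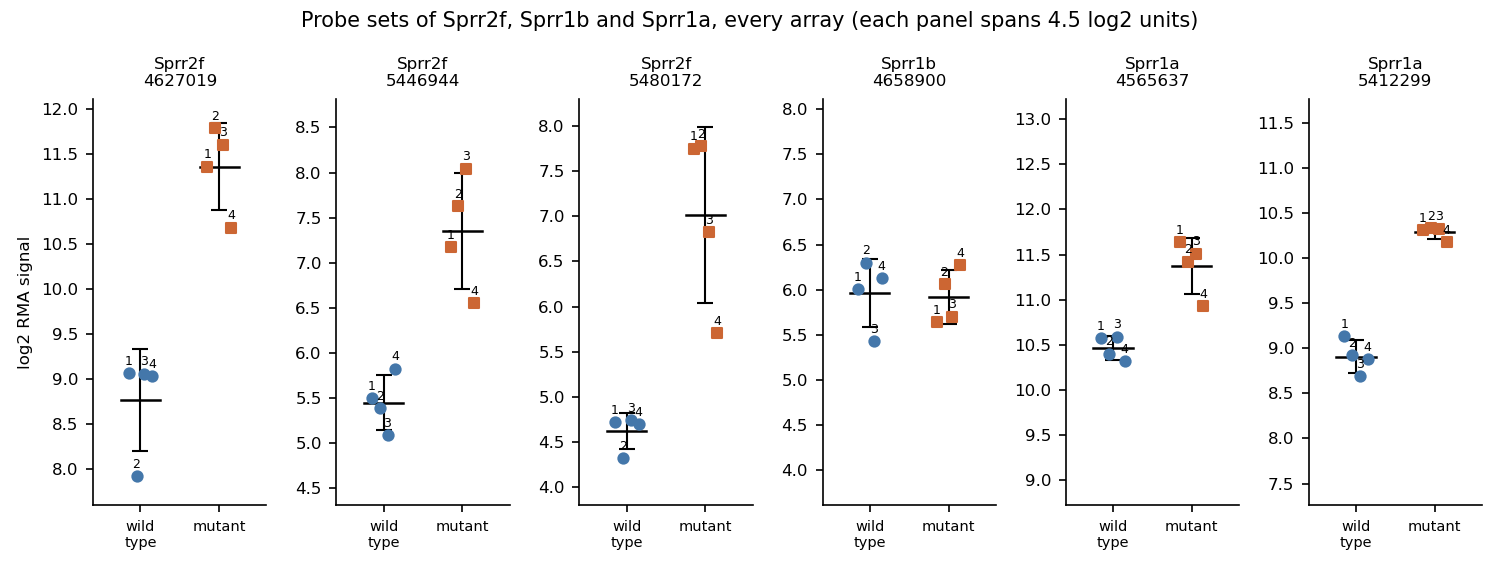
Exon-level log2 signal of the 3 Sprr2f, 1 Sprr1b and 2 Sprr1a probe sets on every array, drawn as in the gene-level plot with the mean and SD (n = 4). The genotypes are apart on the Sprr2f and Sprr1a probe sets, mutant replicate 4 is the lowest mutant on all 5 of them, and they overlap on the Sprr1b probe set.

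Sprr3, known from the lining of the oesophagus, lies between Sprr1b and Sprr1a. Its cluster (6906966, identical to probe set 5264252) read 6.59, 6.96, 6.73 and 6.71 in wild type and 6.92, 6.76, 7.09 and 7.18 in mutants. The groups overlapped, with a difference of 0.24, and 0.22 without wild-type replicate 4. Sprr4, the one other family gene with a named cluster and not a member, read 6.48, 5.53, 6.51 and 6.05 in wild type and 5.98, 6.09, 6.08 and 5.75 in mutants. Its mutants lay within the wild-type range, with a difference of -0.17.

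Counted at the gene level, 3 of 6 member clusters passed a limma adjusted p of 0.05, each higher in the mutant, where 0.827% of all clusters passed in either direction and 0.336% passed higher in the mutant. The genotypes did not overlap in 3 of 6 clusters, against 9.54% of all clusters. At the exon level 6 of 9 probe sets passed higher in the mutant, against 1.46% of all probe sets. Nothing is read from these counts, because that contrast selected the members and both levels come from the same arrays. The median difference was 0.56 over the 6 clusters and -0.032 over all clusters, and 1.38 over the 9 probe sets and 0.0081 over all.

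Within a genotype, the members varied in different directions from array to array. Deviations from the genotype means over the 8 arrays, which share each array's RNA and scaling, correlated at 0.59 between Sprr2f and Sprr2g and at 0.17 between Sprr2f and Sprr1a. Sprr2f and Sprr3 ran opposite, at -0.78, and Sprr2h and Sprr3 together, at 0.63. Of 14148 genes compared on the same measure, those most like Sprr2f were Rnf208 (0.98), Pex11a (0.97), Muc1 (0.96), Olfr1378 (0.96) and Fh1 (0.95), and 46 genes exceeded 0.9. Of these 5, Muc1, which encodes a membrane mucin of epithelia, was higher in mutants by 0.84 (limma SE 0.128, adjusted p = 0.0217), and the other differences lay between -0.27 and 0.085 and did not pass. Those most like Sprr1a were Vmn1r90 (0.98), Cttnbp2nl (0.94), Prdm11 (0.93), B130046B21Rik (0.92) and Snx31 (0.92), with differences from -0.11 to 0.20 that did not pass. With 8 arrays such correlations are a description. Mutant replicate 4 deviated by -0.93 for Sprr2f, the largest deviation of any member, so it weighs most on the Sprr2f correlations. Within the wild-type arrays alone, Sprr2f correlated at 0.60 with Sprr2g, 0.13 with Sprr1a and -0.90 with Sprr3. The genes most like Sprr2f were not sought again without mutant replicate 4.

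In the rest of the epidermal differentiation complex no measured gene passed the test. Of 83 other genes from S100a13 to S100a10, 33 had a named cluster and 0 passed the limma adjusted p of 0.05, while 4 were higher and 5 lower at an unadjusted p under 0.05. Of all clusters 14.3% had such a p, and of clusters with 1 symbol 10.5% had it higher and 6.08% lower, which is the background for the unadjusted counts of every list. The median difference of the 33 was -0.11, against -0.032 for all clusters and 0.028 for those with 1 symbol. S100a11, a calcium-binding protein, differed by 0.44 (adjusted p = 0.21). S100a10, a partner of annexin A2, differed by 0.38 (adjusted p = 0.231), and S100a8, a granulocyte protein, by -0.46 (adjusted p = 0.212). Ivl, which encodes involucrin and is named for its place next to Sprr4, differed by 0.045 (adjusted p = 0.938).

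**Figure D4:**
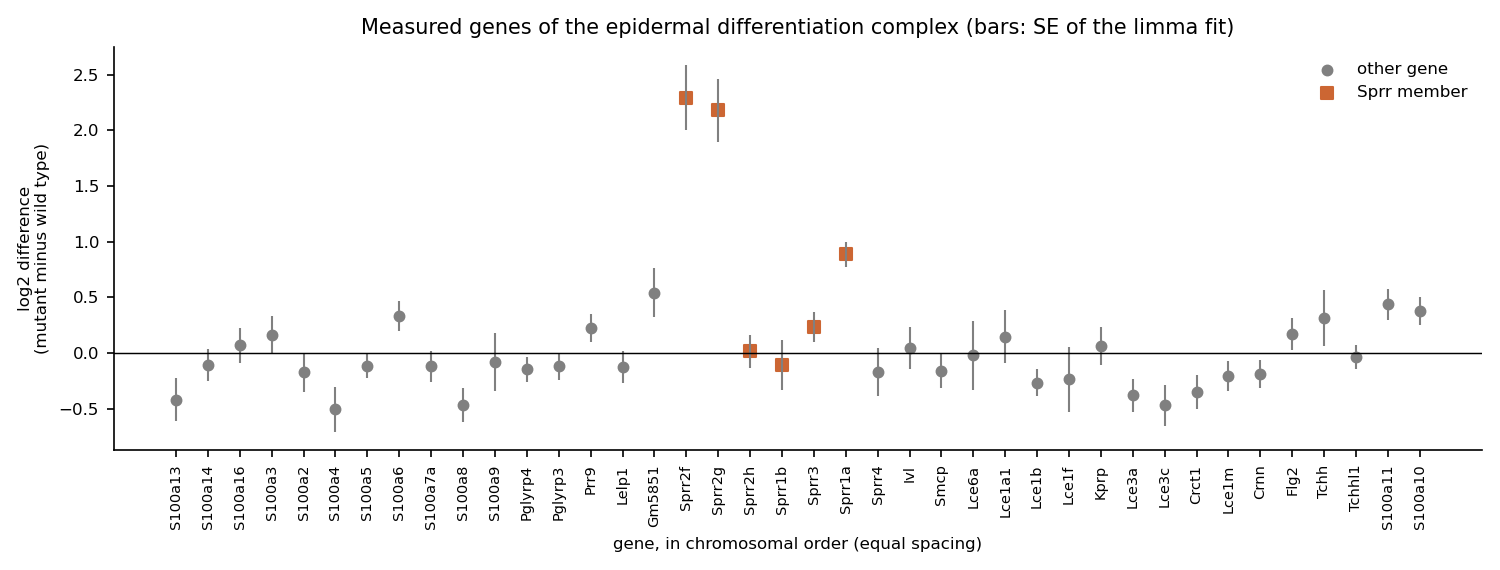
Log2 difference (mutant minus wild type, bars are the SE of the limma fit, n = 4 per genotype) of each measured gene of the epidermal differentiation complex in chromosomal order at equal spacing, members as orange squares. Sprr2f at 2.29, Sprr2g at 2.18 and Sprr1a at 0.89 stand above their neighbours, with Sprr2h, Sprr1b and Sprr3 between them near 0.

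Of 25 listed genes of the cornified envelope and its formation, 23 had a named cluster, and 0 passed the limma adjusted p of 0.05. At an unadjusted p under 0.05, 4 were higher and 1 lower, against 10.5% and 6.08% of clusters with 1 symbol. The median difference was 0.031, against 0.028 for clusters with 1 symbol. With 1-symbol rows alone, 2 passed the adjusted threshold, in a fit where 1408 of all 20707 rows passed. Ppl, encoding the envelope and desmosome linker periplakin, differed by 0.40 (adjusted p = 0.15), Dsp, encoding desmoplakin, by 0.38 (adjusted p = 0.179) and Cstb, a protease inhibitor, by 0.43 (adjusted p = 0.199). Anxa1, named as the 1 lower gene, differed by -0.63 (adjusted p = 0.21), the largest difference of the list in size. The cross-linking transglutaminases, named for their role, did not pass either. Tgm1 differed by 0.23 (adjusted p = 0.421), Tgm2 by 0.30 (0.326), Tgm3 by -0.12 (0.748) and Tgm5 by 0.018 (0.961).

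Among transcription factors known or thought to act on SPRR genes, mostly in human keratinocytes, Elf3 was higher in the mutant. Elf3 is an epithelial ETS factor that acts on human SPRR promoters. It read 6.48, 6.45, 6.66 and 6.31 in wild type and 7.30, 7.73, 7.79 and 7.42 in mutants, with no overlap. The means were 6.47 ± 0.146 and 7.56 ± 0.235 (SD, n = 4 each). The difference was 1.09 (limma SE 0.145), 2.12-fold, with an adjusted p of 0.0123 over all clusters, and 1.03 (adjusted p = 0.0276) without wild-type replicate 4. It missed the threshold without wild-type replicate 2, at 0.0508, and ranged from 0.00167 to 0.0508 over all alternatives.

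Elf3 was the 1 of 35 measured regulators, of 36 listed, that passed over all clusters. With 1-symbol rows alone 6 passed, at or above the 50th percentile of signal 4, and with the trend and robust options of limma 2. In those fits 1408 of 20707, 1199 of 46813 and 993 of 93623 clusters passed in all, against 774 of 93623 in the main fit. At an unadjusted p under 0.05, 11 were higher and 1 lower, and the median difference was 0.19, against -0.032 for all clusters and 0.028 for those with 1 symbol. Grhl1, a grainyhead factor of epithelial junction genes, differed by 0.58 (adjusted p = 0.0729), and Klf5, a factor of proliferating epithelia, by 0.54 (adjusted p = 0.079). Both groups of values were apart, with Klf5 at 6.94 to 7.09 in wild type and 7.38 to 7.71 in mutants.

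By factor family, a split made after the values were seen, the 9 AP-1 genes ran from -0.026 (Fosb) to 0.53 (Fosl1). Of these, 8 of 9 lay above 0 and 0 passed the adjusted threshold. At an unadjusted p under 0.05, 3 of the 9 were higher. The 5 ETS genes spanned from -0.38 (Ets1, adjusted p = 0.165) to the 1.09 of Elf3. The POU factors Pou2f3 and Pou3f1 differed by -0.034 and -0.010. The 5 KLF and SP genes ran from -0.025 to 0.54. Stat3 differed by 0.47 (adjusted p = 0.197) and Stat6 by -0.13 (adjusted p = 0.63). Of the interferon factors, Irf1 differed by 0.32 (adjusted p = 0.343) and Irf2 by -0.16 (adjusted p = 0.557). The 3 grainyhead genes ran from 0.22 to 0.58 and the 3 C/EBP genes from 0.23 to 0.33. Grainyhead and C/EBP motifs were not searched.

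Of the cytokine and growth factor signals, 22 of 23 were measured, and 1 rose and 1 fell. Tnf, an inflammatory cytokine, read 5.55, 5.02, 5.02 and 5.37 in wild type and 6.54, 7.08, 6.46 and 6.44 in mutants. The groups were apart, with a difference of 1.39 (limma SE 0.185), 2.62-fold (adjusted p = 0.0121), and 1.43 without wild-type replicate 4. Tnf lost the call with the replicate number as a block, at an adjusted p of 0.0698. Egf, a growth factor made by distal tubule segments, read 6.51, 6.27, 6.54 and 6.17 in wild type and 5.71, 5.65, 5.59 and 5.63 in mutants, a difference of -0.73 (limma SE 0.121, adjusted p = 0.0306). Egf missed the threshold in 11 of 15 alternatives, with an adjusted p of up to 0.1, among them 7 of the 8 fits that left out an array. Without wild-type replicate 4, the exception, it was 0.0252.

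Il6, a cytokine of the acute response, ran from 5.35 to 5.73 in wild type and from 5.55 to 6.78 in mutants, overlapping in mutant replicate 3. Its difference was 0.75 (adjusted p = 0.21). The median of the signals was 0.060. Tnf and Egf lie below the 50th percentile of mean signal, so they are dim on these arrays.

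**Figure D5:**
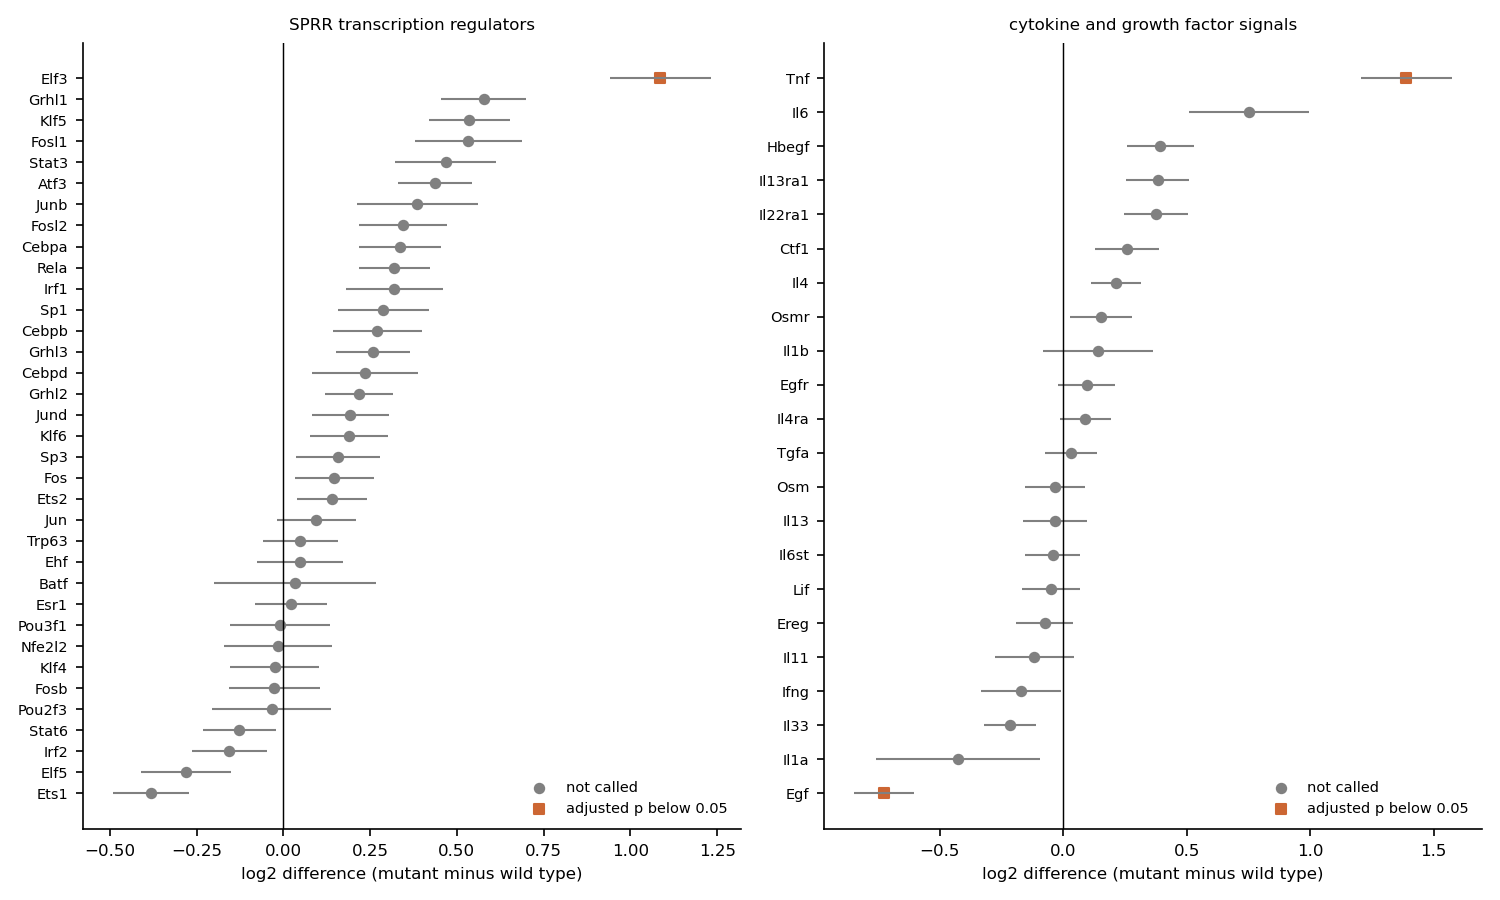
Log2 difference (mutant minus wild type) of each measured gene known or thought to regulate SPRR genes and of each cytokine or growth factor signal. Bars are the SE of the limma fit, n = 4 per genotype. Orange squares mark an adjusted p below 0.05: Elf3 at 1.09, Tnf at 1.39 and Egf at -0.73.

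Markers of cells that make Sprr proteins, or that a glomerular preparation can hold, moved as follows. For squamous epithelium 15 symbols were listed, of which Lor and Loricrin are the same gene, not measured here. The 10 squamous markers measured had 0 past the threshold, 1 higher at an unadjusted p under 0.05 and a median difference of -0.11. Their mean log2 signal per array was 6.00 to 6.52 in wild type and 6.10 to 6.29 in mutants, from Dsc3 at -0.25 to Krt10 at 0.37. Urothelium markers, 9 of 10 measured, also had 0 past the threshold, with 2 higher at an unadjusted p under 0.05 and a median of 0.18. With 1-symbol rows alone 2 passed, where 1408 of all 20707 rows did. With array weights or without mutant replicate 1, 1 passed, against 1311 and 393 of 93623 clusters. The urothelium mean, which includes Krt20, was 6.50 to 6.61 in wild type and 6.62 to 6.88 in mutants. The nearest arrays, wild-type replicate 2 at 6.609 and mutant replicate 3 at 6.622, were barely apart.

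Krt20, a keratin of the outermost urothelial cells, was the urothelium marker that differed most. It read 4.85, 4.87, 5.02 and 5.00 in wild type and 5.39, 6.29, 6.55 and 5.93 in mutants, a difference of 1.10 (limma adjusted p = 0.0632). Upk2, a uroplakin, was lowest of that list at -0.12 (adjusted p = 0.8). Parietal epithelium markers, for the capsule around the glomerulus, had 0 of 7 past the threshold, 4 higher at an unadjusted p under 0.05 and a median of 0.35. Their mean ran from 8.52 to 8.93 in wild type and 8.96 to 9.16 in mutants, with Cldn1 highest at 0.45 (adjusted p = 0.202) and Scin lowest at -0.024.

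Collecting duct markers had 1 of 11 higher, Hsd11b2, a steroid-inactivating enzyme, at 0.79 (adjusted p = 0.0122; 0.0542 without wild-type replicate 2, 0.0693 with the replicate block), and a median of -0.17. Scnn1a was lowest of these at -0.39 (adjusted p = 0.18). Their mean was 7.87 to 7.99 in wild type and 7.70 to 8.04 in mutants. Podocyte markers, 6 of 8 measured, had 2 lower, Ptpro at -1.27 (adjusted p = 0.00311) and Cdkn1c at -1.06 (0.0302), with a median of -0.59. Their mean was 8.80 to 9.0 in wild type and 8.09 to 8.42 in mutants, and the highest difference was the -0.11 of Wt1. Cdkn1c missed the threshold in 9 of 16 alternatives, with an adjusted p of up to 0.101.

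Glomerular endothelium markers had 1 of 8 lower, Ehd3 at -1.26 (adjusted p = 0.00571), with a median of -0.36, Plvap being highest at -0.059. With 1-symbol rows alone 6 of the 8 passed, where 1408 of all 20707 rows did. At or above the 50th percentile 2 passed, against 1199 of 46813 clusters. With the trend and robust options or with array weights 2 passed, against 993 and 1311 of 93623. The endothelium mean was 9.17 to 9.35 in wild type and 8.84 to 8.89 in mutants. Proximal tubule markers had 4 of 8 lower, with a median of -0.62 and means of 9.11 to 9.35 in wild type and 8.30 to 8.67 in mutants. These 4 were Slc13a3 at -1.46 (adjusted p = 0.018), Dpep1 at -1.09 (0.00686), Slc34a1 at -0.79 (0.0353) and Slc5a2 at -0.57 (0.0482), and Cubn was highest at -0.19. At most 2 of the 8 passed in 10 of 16 alternatives, with 0 in the replicate block. More passed in others, where the count over all clusters rose as well. These were 6 with 1-symbol rows and 5 each at or above the 50th percentile, with array weights and under the trend and robust options. Mesangium markers, 5 of 6 measured, and leukocyte markers, 9 of 10 measured, had 0 past the threshold and 2 lower each at an unadjusted p under 0.05, with medians of -0.32 and -0.17. Itga8 and Acta2 bounded the mesangium list at -0.45 and 0.046, and S100a8 and Cd3e the leukocyte list at -0.46 and 0.093. At that unadjusted p, 5 of 6 podocyte, 6 of 8 glomerular endothelium and 7 of 8 proximal tubule markers were lower and 0 higher. Of the 11 collecting duct markers, 2 were higher and 1 lower. The part of these shifts in the Sprr differences was not tested.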

How the data were processed

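The authors deposited log2 values from RMA (background correction, quantile normalization and probe summary) made with Partek on mm9, per the submitters' processing notes. Their versions are not given in the sources used. The log base was read from the range, 3.57 to 14.9. RMA is known to compress dim signals, and its effect on these differences was not tested.

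Symbols came from the platform annotation, with 1 symbol for 20707 of 93623 clusters and 192914 of 375483 probe sets. Other rows were tested but not named. Where a gene had several clusters, that of highest mean was used.

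Mutant minus wild type was fitted with limma 3.58.1 in R 4.3.3 (lmFit, eBayes). Two-sided p-values were adjusted by Benjamini and Hochberg over all rows of a table, at a threshold of 0.05. The p-values measure spread between these samples, which the labels do not tie to litters. The number of arrays limits the precision.

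In simulated data, 42% of clusters changed 2.0-fold and 86% of those changed 4.0-fold were called (93623 rows), with 32% and 70% of probe sets (375483 rows). The simulated rows varied independently, each with its own mean and residual SD. They held no effect shared by an array or a code letter, so these shares need not hold for the real arrays.

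Members and lists were chosen with earlier results of these data known. In each gene list, called genes and up to 3 of smallest p are named, and in each marker list called genes and the extremes. For likeness, the 5 genes of highest correlation with a mean at or above the 50th percentile are named. Promoters were aligned globally with match 1, mismatch 0, gap opening -2 and extension -0.5. Alternatives covered scaling, filters, limma options, array weights, the code letter, the replicate block and each array left out.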

Additional observations from a re-analysis of the deposited data

Results flagged for a closer look

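In 6 of 30 groups of 4 arrays, the highest or lowest array stood farther from its nearest neighbour, relative to the group's range, than Dixon's critical value at the 95% level. Chance flags about 1 in 20 groups. Sprr2g, whose rows at both levels are identical, accounts for 2 of the 6. On the gene level, wild-type replicate 3 read 6.03 for Sprr1b, below the other wild-type arrays. Wild-type replicate 4 read 5.96 for Sprr2g at both levels, above the others, and still below every mutant. At the exon level, wild-type replicate 2 read 7.93 on probe set 4627019 and 4.32 on probe set 5480172 of Sprr2f, below the other wild-type arrays. Mutant replicate 4 read 10.17 on probe set 5412299 of Sprr1a, below the other mutants and above every wild-type array.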

How the results depend on the processing

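No result changed its sign or order of genotypes in the alternatives run where it had been called. Of the members, differences over 18 alternatives ran from 2.13 to 2.60 for Sprr2f, 2.02 to 2.41 for Sprr2g, 0.82 to 1.14 for Sprr1a, 0.17 to 0.31 for Sprr3, -0.33 to -0.021 for Sprr1b and -0.061 to 0.097 for Sprr2h. The 1.14 of Sprr1a is the mean of its named probe sets. The number of clusters called, 774 of 93623, became 1408 of 20707 with 1-symbol rows only and 1199 of 46813 at or above the 50th percentile. It was 993 with trend and robust options, 1311 with array weights and 258 with the code letter as a random block. With an array left out it was 268 to 758. The 10035 probe sets called became 16875 with trend and robust options, 15378 with array weights, 2828 with the code letter, and 3513 to 9913 with an array left out. Of the cornified envelope genes, 2 passed with 1-symbol rows, not 0. Of the regulators, 6 passed with 1-symbol rows, 4 at or above the 50th percentile, 2 with trend and robust options, and 0 to 1 with an array left out. Of the signals, 1 passed with quantile normalization repeated, with arrays centred on their medians and with the code letter. None of the signals (0) passed at or above the 50th percentile, where Tnf and Egf were not tested, and 1 to 2 passed with an array left out. The cause of these shifts was not tested, beyond fewer rows or arrays in the fit. For the marker lists, the alternatives were chosen after seeing the data. With 1-symbol rows, 4 podocyte, 2 mesangium, 3 collecting duct and 1 each of the parietal, squamous and leukocyte markers passed. In that fit 1408 of all 20707 rows passed.

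The shared replicate numbers were not treated as pairs, because not every same-numbered pair of arrays had deviations correlated above 0.1. The correlations were -0.0048, 0.069, 0.263 and 0.204 at the gene level and -0.0008, 0.117, 0.236 and 0.200 at the exon level, so most pairs at the exon level did exceed it. With the replicate block, 185 clusters and 7859 probe sets were called, and 0 of the signals. Not every array correlated best with its own number. Dim signal limits Tnf, Egf and the low Sprr probe sets.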
